A study of Homo sapiens with 12 samples.

Results

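The comparison described here sets 3 combination tumors, from mice given acadesine and rituximab together, against 3 rituximab tumors, from mice given rituximab alone, and so asks what acadesine changed when rituximab was already being given. The 6 tumors were taken by their treatment labels out of 12 in the series, and every gene measured was included, which gave 18239 genes, each read by the probe set that was brightest on average across all 12 arrays. All tumors grew under the skin of female CB17-SCID mice from JEKO-1, a cell line of aggressive mantle cell lymphoma (MCL), and were collected after 18 days of treatment. Combination mice received acadesine at 400 mg/kg and rituximab at 10 mg/kg once a week, and rituximab mice received the same weekly rituximab. The other 6 tumors, used for the spread and for the matching contrast without rituximab, came from 3 acadesine mice (400 mg/kg) and 3 control mice given vehicle. The labels describe acadesine as daily and the methods as given on 5 days a week.

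These xenografts are a limited model. JEKO-1 is 1 established line, each group is 3 tumors from separate mice, and SCID mice lack functional B and T cells but keep natural killer cells, macrophages and complement. The array carries human probes, and mouse RNA can bind some of them. Levels below are log2 values after robust multi-array averaging (RMA), so a difference of 1 is a doubling, and differences are combination minus rituximab ± the standard error (SE) of the limma fit. A gene is called when its p, adjusted over all 18239 genes, is under 0.05. The 6 arrays correlated at 0.989 to 0.996 across genes, and the 11 measured lineage markers of B cells and JEKO-1 averaged 10.02, 9.96 and 9.99 in combination tumors, against 9.86, 9.87 and 9.84 in rituximab tumors. Of these markers SOX11 rose by 1.35 and was the only 1 called, so it weighs heavily in the averages. The median difference of the markers was 0.09, with 6 above 0 and 5 below. Skeletal muscle transcripts set some tumors apart. The mean of 54 muscle genes was 4.56, 5.55 and 5.06 in combination tumors 1, 2 and 3, against 4.55, 4.83 and 4.51 in rituximab tumors 1, 2 and 3, while control tumors lay between 4.53 and 4.60. Combination tumors 2 and 3 and rituximab tumor 2 thus exceeded every control tumor.

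Acadesine enters cells through nucleoside transporters and is phosphorylated by adenosine kinase (ADK) to an AMP-like nucleotide, which activates AMP-activated protein kinase (AMPK) and is itself an intermediate of purine synthesis, processed by ATIC. Rituximab binds CD20, encoded by MS4A1, on the surface of B cells. Cells exposed to interferon switch on a large set of antiviral genes through transcription factors that bind the interferon-stimulated response element in their promoters. Metallothioneins are small proteins that hold zinc and copper, and their genes are switched on by the zinc-sensing factor MTF1 through metal response elements.

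The lists of interferon-induced effectors and metallothioneins held 7 of the 15 largest falls among called genes without overlap between combination and rituximab tumors. Promoters of both families are therefore shown first. The bases before the start of 4 interferon-induced genes and 3 metallothionein genes are given from RefSeq on GRCh38.p14, each 160 bases long, 5′ to 3′ on the strand of the gene. The windows are chr10:89392463-89392622 (+) for IFIT1, chr10:89327837-89327996 (+) for IFIT3, chr10:89414408-89414567 (+) for IFIT5, chr4:168318753-168318912 (-) for DDX60, chr16:56669654-56669813 (+) for MT1H, chr16:56682310-56682469 (+) for MT1X and chr16:56608424-56608583 (+) for MT2A. Capitals mark the interferon-stimulated response element, searched as GAAA, any 2 bases, then GAAA, in the first 4, and the metal response element, searched as TGCACNC or TGCGCNC, in the last 3, on either strand and with overlaps allowed.
IFIT1: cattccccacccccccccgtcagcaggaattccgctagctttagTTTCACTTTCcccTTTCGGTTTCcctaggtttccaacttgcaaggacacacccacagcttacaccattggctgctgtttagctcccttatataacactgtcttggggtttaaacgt
IFIT3: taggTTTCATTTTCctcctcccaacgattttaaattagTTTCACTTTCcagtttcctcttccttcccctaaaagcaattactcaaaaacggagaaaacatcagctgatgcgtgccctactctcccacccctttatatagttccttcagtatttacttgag
IFIT5: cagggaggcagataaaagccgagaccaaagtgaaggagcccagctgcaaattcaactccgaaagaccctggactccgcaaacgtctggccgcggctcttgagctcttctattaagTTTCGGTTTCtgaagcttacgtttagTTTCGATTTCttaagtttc
DDX60: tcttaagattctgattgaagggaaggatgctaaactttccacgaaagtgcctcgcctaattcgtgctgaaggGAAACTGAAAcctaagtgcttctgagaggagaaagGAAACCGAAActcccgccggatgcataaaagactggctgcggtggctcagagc
MT1H: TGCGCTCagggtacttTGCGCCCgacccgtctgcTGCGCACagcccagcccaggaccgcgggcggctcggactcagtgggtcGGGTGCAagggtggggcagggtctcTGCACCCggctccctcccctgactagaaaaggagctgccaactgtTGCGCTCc
MT1X: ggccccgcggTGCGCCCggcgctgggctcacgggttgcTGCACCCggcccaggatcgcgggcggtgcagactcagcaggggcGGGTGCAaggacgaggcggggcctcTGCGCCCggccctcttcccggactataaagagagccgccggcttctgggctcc
MT2A: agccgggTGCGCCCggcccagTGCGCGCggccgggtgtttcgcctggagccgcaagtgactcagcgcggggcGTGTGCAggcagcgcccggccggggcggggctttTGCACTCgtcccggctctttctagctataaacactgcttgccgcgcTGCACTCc
Each of the 4 interferon-induced promoters holds a pair of matches in the window shown, whereas the metallothionein promoters hold 6 (MT1H), 4 (MT1X) and 5 (MT2A). Over the 250 bases before the start, the interferon-stimulated response element was present in 28 of 52 interferon-induced effector genes with a promoter in the table (53.8%), against 371 of 14484 genes tested (2.56%). Among the effectors called it was present in 11 of 20 (55.0%), close to the share of the whole list. The called genes SP100, SP110, SP140, MX1 and CMPK2 had 0 matches, so the 4 promoters shown do not stand for all. Of the genes called lower in combination tumors 26 of 198 held it (13.1%), and of those called higher 3 of 229 (1.31%). Outside the interferon and HLA class I lists the share among genes called lower was 10 of 169 (5.92%). The metal response element stood in 5 of 5 metallothionein promoters, with 5.0 matches on average, and in 29.7% of all genes tested, so it is the more common motif of these searches. A match is a description of the letters and not of binding. The promoters of IFIT2 and MT1G are named only.

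Adding acadesine to rituximab changed 515 of 18239 genes (2.82%). In combination tumors 276 genes were higher (1.51%) and 239 lower (1.31%), a higher share of 53.6%, which became 41.4% (226 higher, 320 lower) when each array was centred on its median. The median size of change of the called genes was 0.65 on the log2 scale, and 69 rose and 26 fell by more than 1. The 3 and 3 tumors did not overlap in 511 of the 515, beside 20.2% of all genes (10.4% higher and 9.8% lower). Set against the 9 other tumors of the series, all 3 combination tumors were highest in 214 of the 276 genes called higher (77.5%). They were lowest in 169 of the 239 called lower (70.7%). Over all genes the shares were 3.1% and 2.94%. This is a description in which the separation from the 3 rituximab tumors was part of the selection. The count leans on particular tumors. It was 106 without rituximab tumor 2, 155 without combination tumor 2, 272 without combination tumor 1 and 297 without rituximab tumor 3. Rituximab tumor 2 was the lowest of the 3 rituximab tumors in 69.6% of genes called higher (34.8% of all genes) and the highest in 74.9% of those called lower (31.9% of all genes). With the muscle level as a covariate 170 genes passed. Without the 5 tumors of any group with raised muscle transcripts, which left combination tumor 1 against rituximab tumors 1 and 3, 21 passed, all higher, of which 20 were among the 515.

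**Figure D1:**
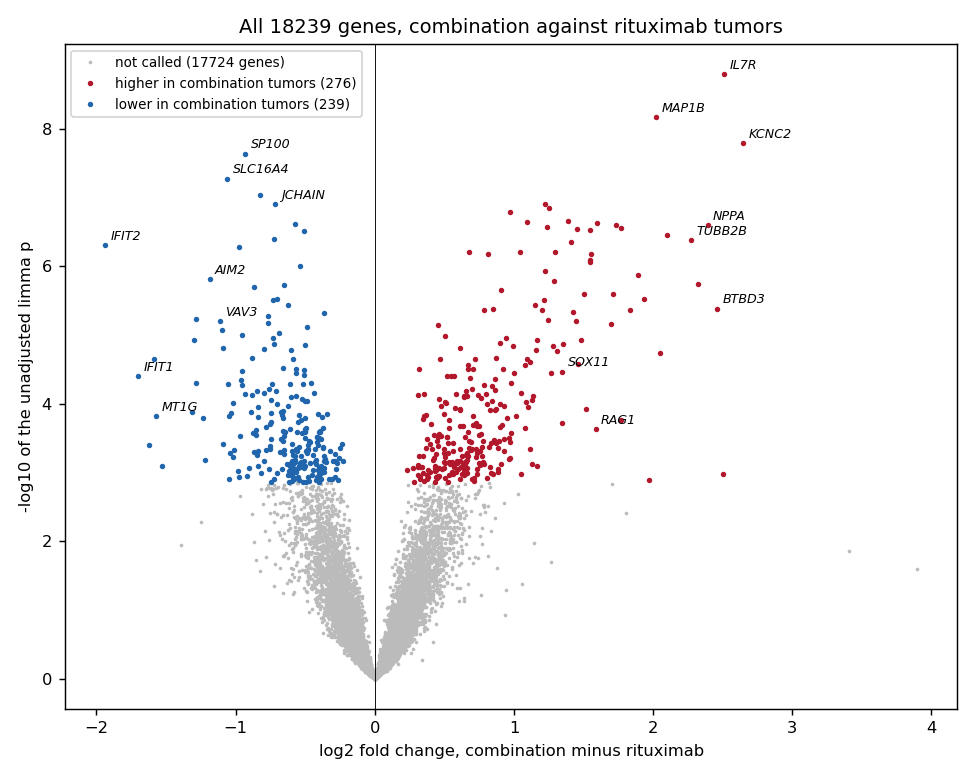
Each of 18239 genes by log2 fold change, combination minus rituximab (x axis), and -log10 of the unadjusted limma p (y axis). Red points are the 276 genes called higher and blue points the 239 called lower in combination tumors; the named rises reach 2.65 (KCNC2) and the named falls -1.94 (IFIT2).

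Several of the genes that fell furthest are ones a cell makes in response to interferon. IFIT2, an antiviral RNA-binding protein, read 5.45, 4.68 and 5.03 in combination tumors 1, 2 and 3, against 6.61, 7.52 and 6.84 in rituximab tumors 1, 2 and 3. The groups did not overlap, combination tumor 2 was the lowest and rituximab tumor 2 the highest. IFIT2 fell by 1.94 ± 0.27 (adjusted p = 0.000346), to 0.261-fold of rituximab tumors. IFIT1, the family member that blocks translation of RNA with foreign caps, read 7.77, 7.02 and 7.43 in combination tumors, against 8.49, 9.51 and 9.33 in rituximab tumors, and fell by 1.70 ± 0.33 (adjusted p = 0.00622). DDX60, a helicase that assists RNA sensors, read 7.93, 6.96 and 7.43 in combination tumors, against 8.59, 9.72 and 8.77 in rituximab tumors, and fell by 1.58 ± 0.29 (adjusted p = 0.0043). CMPK2, a mitochondrial nucleotide kinase, fell by 1.53 ± 0.39 (adjusted p = 0.0369). In each of the 4, combination tumor 2 was the lowest of the 6 tumors and rituximab tumor 2 the highest. IFIT2 passed whichever 1 tumor was left out, while without rituximab tumor 2 the adjusted p was 0.0682 for IFIT1, 0.0561 for DDX60 and 0.222 for CMPK2, and without combination tumor 2 it was 0.0554 for IFIT1 and 0.234 for CMPK2. CMPK2 also missed the threshold without combination tumor 1 (0.0523), combination tumor 3 (0.0552) or rituximab tumor 3 (0.114).

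Calls among the interferon-induced effectors also ran one way. Of 69 measured, 22 were called lower and 0 higher, and 62 lay below 0, with a median of -0.48 against 0.000302 over all genes. The 22 were the RNA-binding IFIT1, IFIT2, IFIT3 and IFIT5, the helicase DDX60, the double-stranded RNA kinase EIF2AK2, the nuclear body proteins SP100, SP110 and SP140, the restriction factors MX1, TRIM5 and TRIM22, the exonuclease ISG20, the ISG15 ligase HERC5, the ADP-ribosyltransferase family members PARP9 and PARP14, and IFI35, IFI44, SAMD9L, PLSCR1, LGALS3BP and CMPK2. SP100, which organizes nuclear bodies, read 8.92, 8.67 and 8.96 in combination tumors, against 9.76, 9.85 and 9.74 in rituximab tumors, and fell by 0.93 ± 0.11 (adjusted p = 0.000106). SP110 fell by 0.82 ± 0.10 and SP140 by 0.70 ± 0.11 (adjusted p = 0.00027 and 0.00116), and these 3 genes passed whichever 1 tumor was left out. MX1, a GTPase that traps viral particles, was abundant throughout at 12.30, 11.63 and 11.99 in combination tumors, against 12.35, 12.57 and 12.44 in rituximab tumors, a difference of -0.48 ± 0.13 (adjusted p = 0.0446). The count of 22 was 5 without rituximab tumor 2, 6 without combination tumor 2, 14 without rituximab tumor 3, 4 with the muscle level as a covariate and 0 without the tumors with raised muscle transcripts. Interferon genes themselves were at the low end of the scale. The 17 measured lay between 3.24 and 4.49 in the 6 tumors, against a median of 5.27 over all genes, and 0 were called.

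Genes that sense nucleic acids or carry the interferon signal held fewer calls. Of 26 measured, 2 fell and 1 rose, with a median of -0.11. IRF8, a transcription factor of B and myeloid cells that acts downstream of interferon gamma, fell by 0.50 ± 0.09 (adjusted p = 0.00318), and passed whichever 1 tumor was left out. It did not pass with the muscle level as a covariate (adjusted p = 0.0526) or without the variance trend. IFIH1, the sensor of long double-stranded RNA, fell by 0.62 ± 0.16 (adjusted p = 0.0425), and passed only when rituximab tumor 1 was the one left out (0.0109, against 0.085 to 0.273 without any other). A second probe set of IFIH1 did not move the same way. IRF4, the factor that drives B cells towards plasma cells, went the other way, with 10.31, 10.53 and 10.33 in combination tumors, against 9.93, 9.84 and 10.01 in rituximab tumors, a rise of 0.46 ± 0.10 (adjusted p = 0.00994, and 0.0843 without rituximab tumor 2 or 0.0853 without combination tumor 2). DHX58, a regulator of RNA sensors, differed by -0.82 ± 0.23 and did not pass (adjusted p = 0.0568).

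Calls among the genes that cut peptides and load them on HLA class I, many of them interferon-inducible, ran one way. Of 20 measured 7 were called lower (TAP1, TAP2, PSMB8, PSMB9, PSME2, HLA-B and HLA-F) and 0 higher, and 19 lay below 0, with a median of -0.24. TAP1, one of the paired transporters that carry peptides into the endoplasmic reticulum, read 9.83, 9.63 and 9.91 in combination tumors, against 10.34, 10.51 and 10.48 in rituximab tumors, a fall of 0.65 ± 0.10 (adjusted p = 0.000846). Its partner TAP2 fell by 0.61 ± 0.12, the immunoproteasome subunit PSMB8 by 0.51 ± 0.10 and HLA-F by 0.71 ± 0.14. All 3 combination tumors were below all 3 rituximab tumors in each of these 4 genes. HLA-B shifted by less, at 12.89, 12.73 and 12.86 in combination tumors, against 13.06, 13.08 and 13.05 in rituximab tumors. The count of 7 was 1 without rituximab tumor 2 and 1 without combination tumor 2, and TAP1 passed whichever 1 tumor was left out. It was 1 with the muscle level as a covariate and 0 without the tumors with raised muscle transcripts, where TAP1 had an adjusted p of 0.311. Among 20 HLA class II genes HLA-DQA1 alone was called (-0.25 ± 0.06). It passed without combination tumor 3 and not without any other tumor, where the adjusted p lay between 0.0519 and 0.185.

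Metallothioneins had the highest share of calls among the 37 pathway lists. Of 10 measured 5 were called lower (MT1F, MT1G, MT1H, MT1X and MT2A) and 0 higher, with a median of -0.45. MT1H read 4.40, 4.57 and 4.77 in combination tumors, against 5.97, 7.07 and 5.56 in rituximab tumors, and fell by 1.62 ± 0.38 (adjusted p = 0.0261). MT1G read 7.01, 7.44 and 7.79 in combination tumors, against 8.86, 9.88 and 8.20 in rituximab tumors, and fell by 1.57 ± 0.34 (adjusted p = 0.0143). MT2A, the most widely expressed member in human tissues, read 7.57, 8.09 and 8.04 in combination tumors, against 8.99, 9.91 and 8.50 in rituximab tumors, and fell by 1.23 ± 0.27 (adjusted p = 0.0147). In the 3 genes rituximab tumor 2 was the highest and no tumors overlapped. MT1X fell by 0.98 ± 0.26 and MT1F by 0.75 ± 0.17, whereas MT1B, MT1E, MT1M, MT3 and MT4 were not called. Metallothionein genes are near-identical copies, so their probe sets can share signal. The count of 5 was 0 without rituximab tumor 2, 0 without combination tumor 1 and 1 without combination tumor 2, and the adjusted p without rituximab tumor 2 was 0.137 for MT1G, 0.205 for MT1H, 0.135 for MT2A, 0.3 for MT1X and 0.15 for MT1F. With the muscle level as a covariate 4 of the 5 passed, and without the tumors with raised muscle transcripts 0 did. All 5 also missed the threshold with the mean of a gene's probe sets and without the variance trend. In a piece of tumor, fewer cells making a transcript and less transcript per cell cannot be told apart.

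Of 30 genes of zinc and iron handling 2 fell. SLC39A10, a zinc importer of B cells, read 10.97, 10.73 and 10.84 in combination tumors, against 11.43, 11.41 and 11.32 in rituximab tumors. The fall of 0.54 ± 0.08 (adjusted p = 0.000524) passed whichever 1 tumor was left out, but not with the gene's most variable probe set. TFRC, the transferrin receptor through which cells take up iron, fell by 0.57 ± 0.12 (adjusted p = 0.00949, and 0.0892 without rituximab tumor 2 or 0.0538 without combination tumor 2). MTF1, the factor that reads metal response elements, differed by 0.10 ± 0.17.

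**Figure D2:**
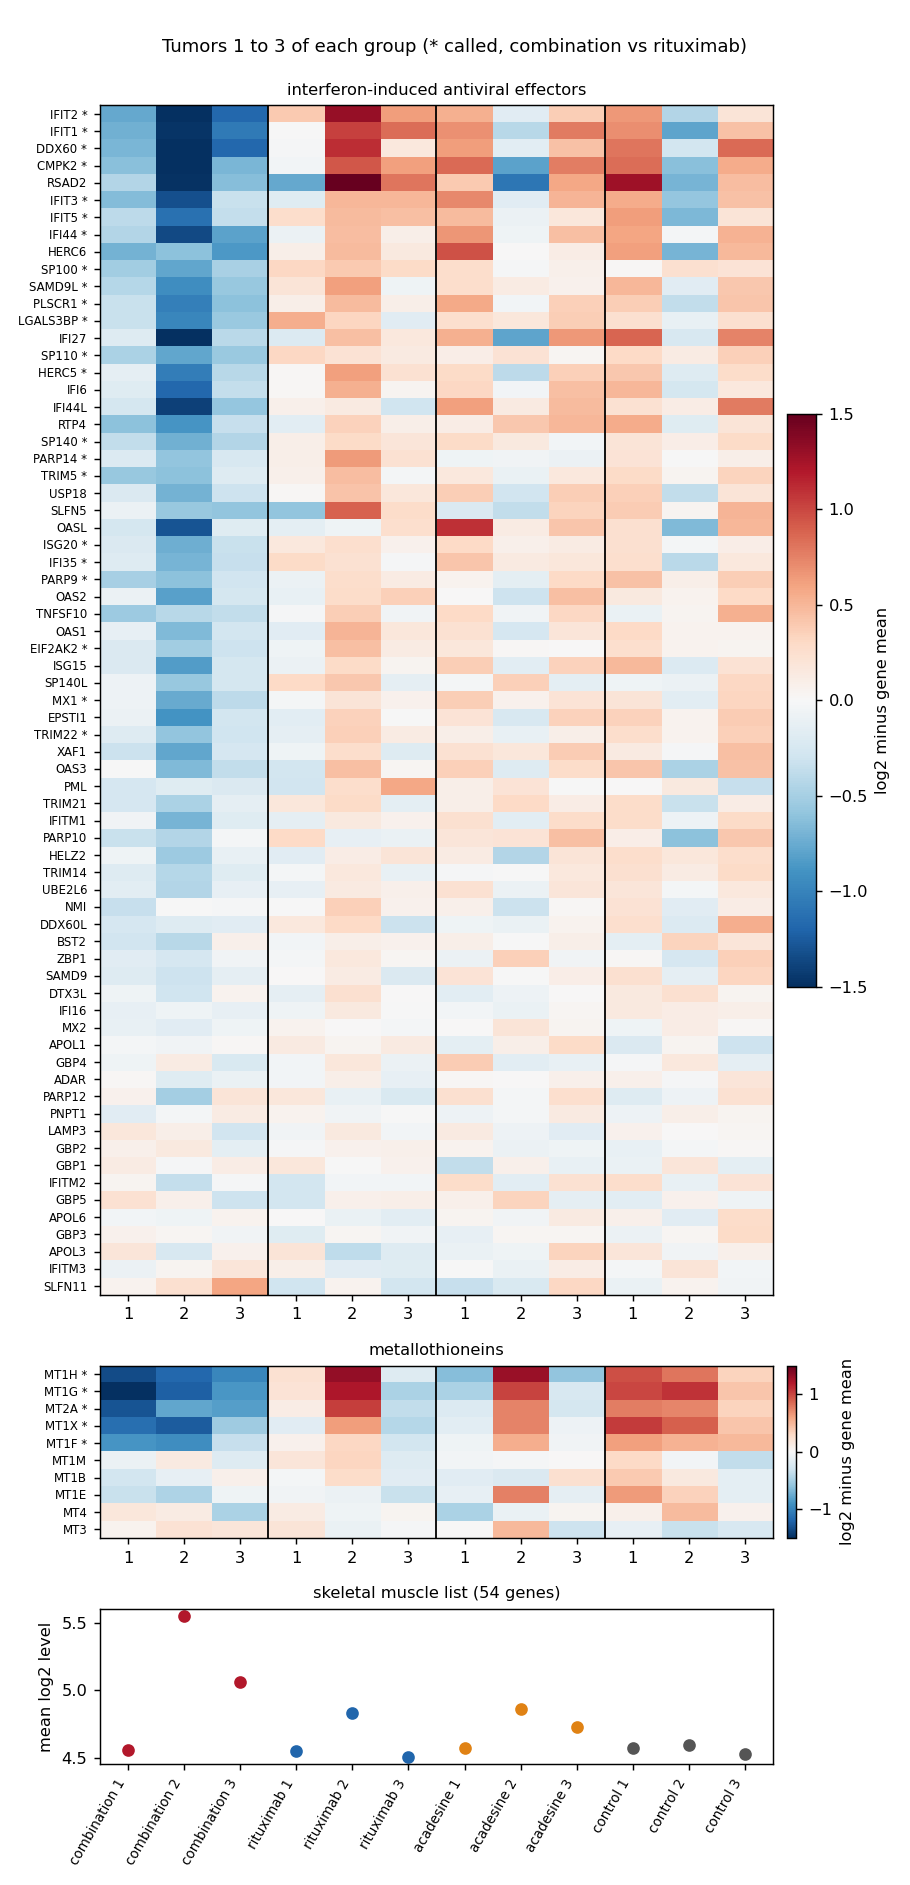
Level of each of 69 interferon-induced effectors and 10 metallothioneins in tumors 1, 2 and 3 of the combination, rituximab, acadesine and control groups (columns, left to right), as log2 value minus the gene's mean over 12 tumors, with asterisks on the 22 and 5 genes called lower. The lowest panel gives the mean log2 level of 54 skeletal muscle genes, 5.55 in combination tumor 2, which is also the tumor with the deepest blue among the interferon genes.

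Several genes of B cell signaling and of the immune surface fell by a similar amount. VAV3, a signaling protein downstream of the B cell receptor, read 8.95, 8.64 and 8.77 in combination tumors, against 9.98, 10.23 and 9.48 in rituximab tumors, and fell by 1.12 ± 0.19 (adjusted p = 0.00184). MEF2C, a transcription factor that B cells need to proliferate after receptor signaling, fell by 1.09 ± 0.19 (adjusted p = 0.00226). RGCC, a regulator of the cell cycle first described as responding to complement, read 7.89, 6.94 and 7.68 in combination tumors, against 8.77, 8.93 and 8.67 in rituximab tumors, and fell by 1.28 ± 0.21 (adjusted p = 0.00178). No tumors overlapped in these 3 genes, and each passed whichever 1 tumor was left out. MEF2C did not pass with the muscle level as a covariate (adjusted p = 0.0552) or with the mean of its probe sets. AIM2, the sensor of cytosolic DNA that starts an inflammasome, read 9.60, 9.09 and 9.18 in combination tumors, against 10.20, 10.95 and 10.28 in rituximab tumors, a fall of 1.19 ± 0.18 (adjusted p = 0.000741). With AIM2, the inflammasome list of 21 genes had 4 called lower (CARD16, CASP1 and CASP4 besides) and 0 higher, and 2 of these remained called without rituximab tumor 2. CARD16, an inhibitor of caspase-1, fell by 0.80 ± 0.14 (adjusted p = 0.00345).

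Within the B cell receptor list 3 of 32 genes fell (VAV3, PRKCB and SH3BP5) and FYN rose by 0.53 ± 0.12 from a low level (adjusted p = 0.0248). The 3 falls became 1 without rituximab tumor 2, combination tumor 2 or combination tumor 3, and FYN did not pass without rituximab tumor 2 (0.117), combination tumor 2 (0.113), combination tumor 3 (0.0754) or rituximab tumor 1 (0.0683). Of 33 NF-kB genes 3 fell, the subunit NFKB1 by 0.41 ± 0.10, the cytokine LTB by 0.85 ± 0.17 and PLEK by 0.90 ± 0.23, and 0 remained without rituximab tumor 2 or without combination tumor 2. CD40, the costimulatory receptor of B cells, was the only one of 23 genes called in its list. It read 9.83, 9.56 and 9.73 in combination tumors, against 10.04, 10.36 and 10.21 in rituximab tumors, a fall of 0.50 ± 0.10 (adjusted p = 0.0104) that was lost without rituximab tumor 2 (0.108) or combination tumor 2 (0.0804). JCHAIN, which joins secreted antibody units, fell by 0.71 ± 0.09 (adjusted p = 0.00027) and passed whichever 1 tumor was left out. CD27, a memory B cell marker (-0.40 ± 0.11), and CD52, a lymphocyte surface antigen (-0.38 ± 0.10), did not pass without rituximab tumor 2 (adjusted p = 0.223 and 0.325) or combination tumor 2 (0.276 and 0.294), nor without combination tumor 1 (0.0614 and 0.128). Of the interleukin receptors IL5RA (-0.84 ± 0.18), IL10RA (-0.71 ± 0.18) and IL13RA1 (-1.04 ± 0.23) were called lower, and 0 of the 3 without rituximab tumor 2 or without combination tumor 2. CD20 itself, the target of rituximab, was not called. MS4A1 read 11.93, 11.86 and 12.06 in combination tumors, against 11.99, 12.59 and 12.21 in rituximab tumors, a difference of -0.31 ± 0.10 (adjusted p = 0.107).

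Among genes tied to MCL, SOX11, the transcription factor that marks most of these lymphomas, rose. It read 9.92, 9.89 and 9.51 in combination tumors, against 8.68, 7.85 and 8.75 in rituximab tumors, a rise of 1.35 ± 0.26 (adjusted p = 0.00573, and 0.0678 without rituximab tumor 2). CD5, an antigen shared by MCL and T cells, fell by 1.03 ± 0.22, CXCR5, the homing receptor for lymphoid follicles, by 0.61 ± 0.14, and GPR183, which positions B cells around follicles, by 0.50 ± 0.11, and these 3 did not pass without rituximab tumor 2 or combination tumor 2. CXCR5 and GPR183 also missed the threshold without rituximab tumor 3 (adjusted p = 0.0576 and 0.1), and GPR183 without combination tumor 3 (0.0617). The cyclin CCND1, switched on in MCL by a translocation, read 12.30, 12.27 and 12.29 in combination tumors, against 11.99, 12.19 and 12.07 in rituximab tumors, and was not called (0.20 ± 0.08, adjusted p = 0.189). The chemokine receptor CXCR4 differed by 0.36 ± 0.10 (adjusted p = 0.0691).

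The 15 largest rises and the 15 largest falls both held genes best known from neurons. KCNC2, a voltage-gated potassium channel of neurons, read 8.10, 7.53 and 7.63 in combination tumors, against 5.03, 4.75 and 5.54 in rituximab tumors. Every combination tumor was more than 1 log2 unit above every rituximab tumor, and KCNC2 rose by 2.65 ± 0.30 (adjusted p = 9.82e-05), or 6.27-fold. BTBD3, which orients dendrites in developing neurons, read 10.10, 9.81 and 9.74 in combination tumors, against 7.48, 6.36 and 8.43 in rituximab tumors, a rise of 2.46 ± 0.40 (adjusted p = 0.00143). NPPA, the precursor of atrial natriuretic peptide, read 10.75, 10.44 and 10.57 in combination tumors, against 8.36, 7.47 and 8.75 in rituximab tumors, a rise of 2.39 ± 0.32 (adjusted p = 0.00027). The combination tumors lay within 0.4 of each other in both genes, while the rituximab tumors spread over more than 1 unit with tumor 2 lowest. The adhesion receptor ADGRG1 rose by 2.32 ± 0.35, the ubiquitin ligase NEURL1B by 2.10 ± 0.29, PSD3, an exchange factor for ARF GTPases, by 2.05 ± 0.37, the zinc finger gene ZNF709 by 1.93 ± 0.31 and HBEGF, a ligand of the EGF receptor, by 1.83 ± 0.30. Of the 15 named rises 14 passed whichever 1 tumor was left out, RPRML being the exception (1.77 ± 0.39, adjusted p = 0.146 without rituximab tumor 2 and 0.0744 without combination tumor 1), whereas 6 of the 15 named falls did. Of 36 genes in the neuronal list KCNC2 was called higher and CNTNAP2, an adhesion protein of axons, lower (-1.30 ± 0.23), and the list's median was 0.03. CNTNAP2 and GABRB2, a subunit of the GABA receptor (-1.28 ± 0.25, adjusted p = 0.00749, and 0.0843 without rituximab tumor 2), were among the 15 largest falls.

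**Figure D3:**
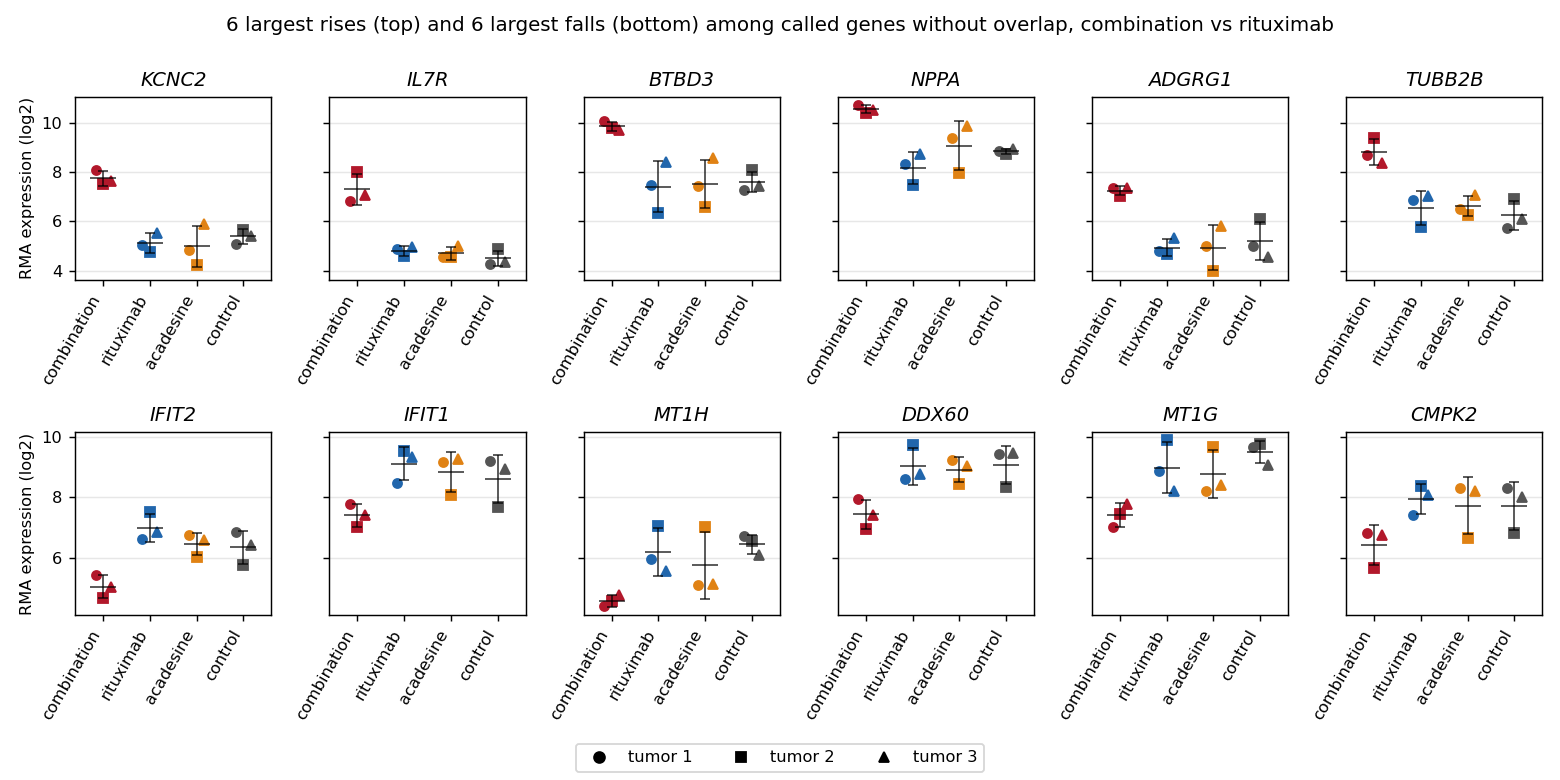
RMA log2 level of the 6 genes with the largest rises (top row) and the 6 with the largest falls (bottom row) among called genes without overlap, in the 3 tumors of each group, with bars for mean and SD. Combination tumors stand apart from all 9 others in KCNC2, IL7R, BTBD3, NPPA, ADGRG1 and TUBB2B, and in IFIT2, MT1H, DDX60 and MT1G, while in IFIT1 and CMPK2 tumors outside the combination group reach its range.

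Calls among microtubule genes were all rises. Of 36 tubulins and microtubule-associated genes 7 were called higher (TUBA8, TUBB, TUBB2B, TUBB3, TUBB6, MAP1B and STMN3) and 0 lower. MAP1B, which stabilizes microtubules in axons, read 7.60, 7.45 and 7.44 in combination tumors, against 5.65, 5.47 and 5.30 in rituximab tumors, a rise of 2.02 ± 0.22 (adjusted p = 6.15e-05). TUBB2B read 8.72, 9.40 and 8.39 in combination tumors, against 6.87, 5.77 and 7.06 in rituximab tumors, a rise of 2.27 ± 0.31 (adjusted p = 0.000318), and TUBB3, the tubulin of neurons, rose by 1.89 ± 0.28 (adjusted p = 0.000669). These 3 genes passed whichever 1 tumor was left out, and 5 of the list were called without rituximab tumor 2. The abundant TUBB rose by 0.37 ± 0.09. The median of the list was 0.11. Among 62 actin genes 4 rose, FMNL2, a formin that elongates filaments, by 1.77 ± 0.24, the spectrin-binding ADD2 by 1.56 ± 0.22, the filament-binding DBN1 by 1.10 ± 0.23 and the GTPase RHOA by 0.23 ± 0.06, while the Arp2/3 subunit ARPC2 (-0.29 ± 0.07) and the adhesion protein VCL (-0.55 ± 0.12) fell. FMNL2 and ADD2 passed whichever 1 tumor was left out, but DBN1, ARPC2 and VCL did not without rituximab tumor 2 (adjusted p = 0.111, 0.182 and 0.142), and 0 of the genes called lower did without combination tumor 2. The second probe set of FMNL2 went the other way.

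Of 33 lymphoid progenitor genes 6 rose, led by IL7R, the receptor chain that early lymphocytes need to grow. IL7R read 6.85, 8.04 and 7.07 in combination tumors, against 4.89, 4.58 and 4.97 in rituximab tumors, a rise of 2.51 ± 0.25 (adjusted p = 2.94e-05), or 5.69-fold. All 3 of its probe sets were higher, and it passed whichever 1 tumor was left out. RAG1, a subunit of the recombinase that assembles antibody genes, read 8.02, 7.57 and 6.87 in combination tumors, against 6.05, 5.18 and 6.48 in rituximab tumors, a rise of 1.59 ± 0.36 (adjusted p = 0.0189), but its second probe set did not rise. The transcription factors MYB (0.47 ± 0.11) and TCF3 (0.40 ± 0.09), ARPP21 (0.77 ± 0.19) and CD99 (0.50 ± 0.13) completed the 6, with 0 called lower and a list median of 0.13. The count was 1 without rituximab tumor 2, without combination tumor 2 or without combination tumor 1, with adjusted p for RAG1 at 0.166, 0.0853 and 0.106.

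Some cell division genes rose by modest amounts at the RNA level. By immunohistochemistry the paper reports less phosphorylated histone H3, a protein marker of proliferation, in combination tumors than in vehicle or single-agent tumors. It also reports stronger inhibition of tumor growth by the combination than by either drug alone. Of 47 mitosis genes 5 were called higher (CDC25B, CENPF, KIF2C, MKI67 and TOP2A) and 0 lower, with 38 above 0 and a median of 0.15. Of 50 DNA replication genes 4 rose (CDC25A, CDT1, RRM2 and UHRF1) and 0 fell, with 38 above 0 and a median of 0.13. MKI67, the gene of the proliferation antigen Ki-67, read 10.73, 10.75 and 10.24 in combination tumors, against 10.27, 9.70 and 9.64 in rituximab tumors, a rise of 0.70 ± 0.14 (adjusted p = 0.00855, with 0.0819 without rituximab tumor 2, 0.0691 without combination tumor 2, 0.054 without rituximab tumor 3 and 0.0528 without combination tumor 1). All 6 of its probe sets were higher, although combination tumor 3 and rituximab tumor 1 overlap. UHRF1, which maintains DNA methylation at replication, read 10.24, 10.35 and 10.10 in combination tumors, against 9.70, 9.70 and 9.74 in rituximab tumors, a rise of 0.52 ± 0.10 (adjusted p = 0.00622). The histones H2AX (0.32 ± 0.06), H1-2 (0.31 ± 0.08) and H1-3 (0.61 ± 0.15) were also higher, 3 of 24 measured. Without rituximab tumor 2, 0 mitosis genes, 1 replication gene and 0 histones were called, and without combination tumor 2, or without combination tumor 1, the counts were 1, 1 and 1. Without rituximab tumor 3, 2 mitosis and 2 replication genes were called, and 8 replication genes without rituximab tumor 1. Of 27 cell cycle inhibitors and p53 targets BTG1, which restrains proliferation of B cells, fell by 0.37 ± 0.09 (adjusted p = 0.0277), and passed only when rituximab tumor 1 was the one left out, with 0.0565 to 0.185 otherwise. The inhibitor CDKN1C read 7.86, 8.18 and 7.70 in combination tumors, against 6.25, 5.50 and 6.88 in rituximab tumors, and just missed the threshold (1.70 ± 0.47, adjusted p = 0.0516).

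**Figure D4:**
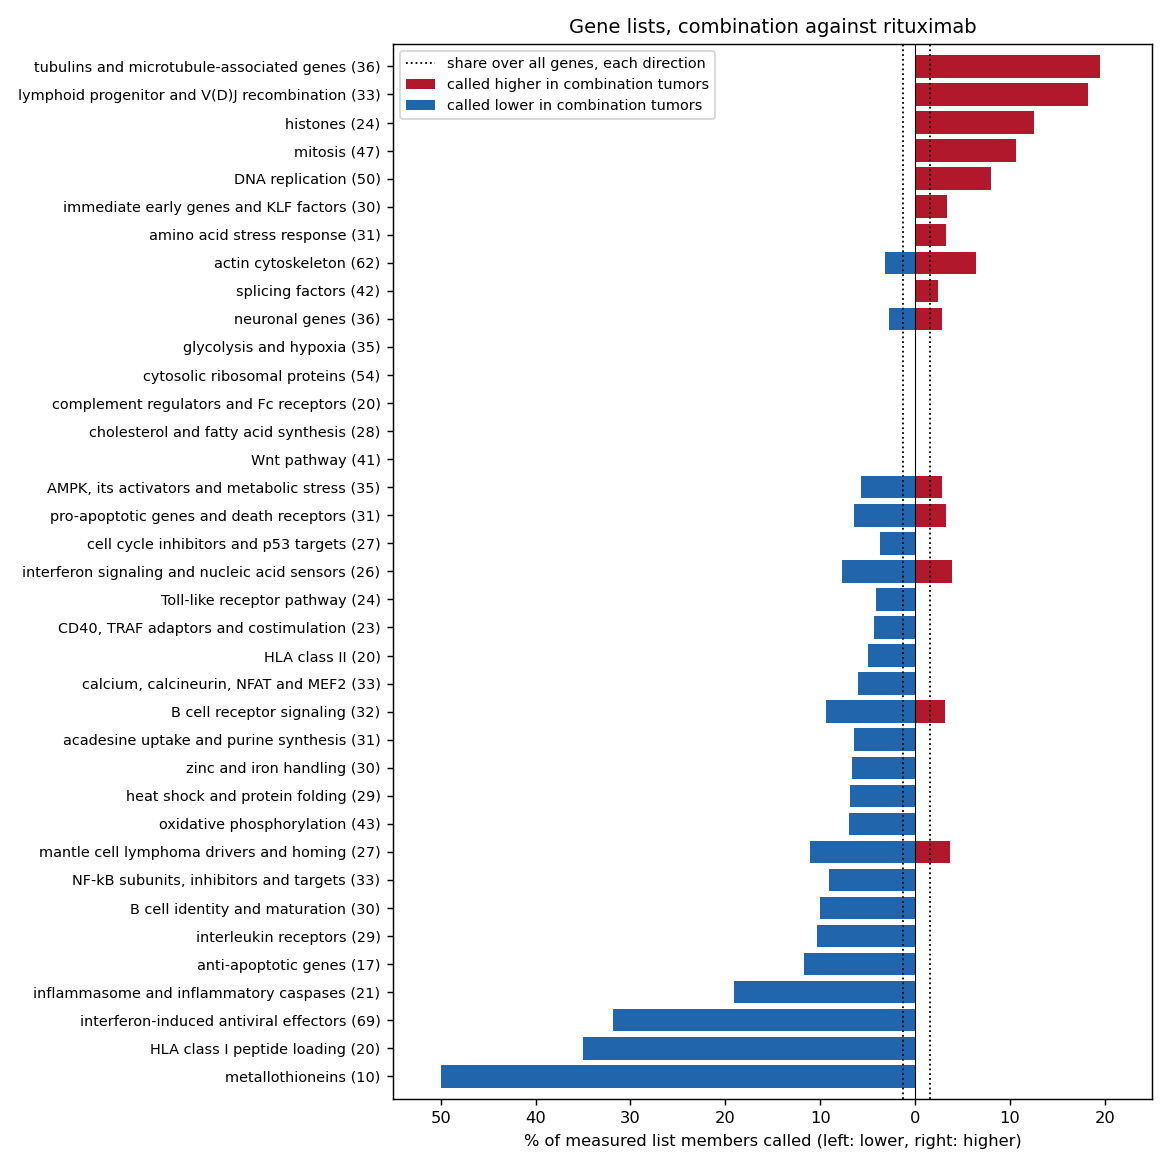
Percent of the measured members of each of 37 gene lists (number measured in parentheses) called higher (red, right) or lower (blue, left) in combination against rituximab tumors. Dotted lines mark the shares over all genes, 1.51% higher and 1.31% lower; metallothioneins (50.0%), HLA class I peptide loading (35.0%) and interferon-induced effectors (31.9%) reach furthest to the left.

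Some genes of the pathway of acadesine itself were called. The share was 8.57% in the AMPK list and 6.45% among genes of nucleoside uptake and purine synthesis, against 2.82% of all genes. ADK read 9.36, 9.41 and 9.42 in combination tumors, against 9.39, 9.45 and 9.57 in rituximab tumors (-0.07 ± 0.09, adjusted p = 0.797), and ATIC differed by -0.17 ± 0.08 (adjusted p = 0.32). The catalytic subunits of AMPK, PRKAA1 (-0.32 ± 0.17) and PRKAA2 (-0.20 ± 0.16), were not called. In the AMPK list of 35 genes 2 fell and 1 rose. TXNIP, which AMPK marks for degradation and which limits glucose uptake, read 10.82, 10.49 and 10.38 in combination tumors, against 11.39, 11.45 and 11.01 in rituximab tumors, a fall of 0.72 ± 0.13 (adjusted p = 0.0031). Its relative ARRDC4, which also limits glucose uptake, read 7.59, 7.40 and 7.71 in combination tumors, against 8.38, 8.32 and 8.20 in rituximab tumors, a fall of 0.73 ± 0.13 (adjusted p = 0.00282). Both passed whichever 1 tumor was left out, but not with the muscle level as a covariate (adjusted p = 0.0579 for TXNIP and 0.0513 for ARRDC4) or without the tumors with raised muscle transcripts (0.802 and 0.442), nor with the most variable probe set or the mean of probe sets. TSC1, an inhibitor of mTOR signaling, rose by 0.50 ± 0.12 (adjusted p = 0.0277, and 0.162 without rituximab tumor 2, 0.134 without combination tumor 1, 0.13 without combination tumor 2 or 0.055 without rituximab tumor 3). Of 31 genes of nucleoside uptake and purine synthesis AMPD3, an AMP deaminase, and NT5C3A, a nucleotidase, fell by 0.75 ± 0.17 and 0.46 ± 0.09, and neither passed without rituximab tumor 2 (adjusted p = 0.182 and 0.0819) or combination tumor 2 (0.151 and 0.0583).

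Calls in other metabolic and stress lists differed in share, beside 2.82% of all genes. The share was 6.98% for oxidative phosphorylation, 6.9% for heat shock and protein folding and 3.23% for the amino acid stress response. It was 11.8% for anti-apoptotic genes and 9.68% for pro-apoptotic genes and death receptors. Of 43 oxidative phosphorylation genes 3 fell (CYC1, NDUFB5 and SDHD, by 0.32 to 0.35), 35 lay below 0, and 0 were called without rituximab tumor 2, combination tumor 2 or combination tumor 1. ATF4, the transcription factor of amino acid stress, rose by 0.40 ± 0.09 as 1 of 31 in its list (adjusted p = 0.0171, and 0.123 without rituximab tumor 2 or 0.0838 without combination tumor 1). The co-chaperones BAG3 and DNAJB4 fell by 0.75 ± 0.15 and 0.98 ± 0.26, and neither passed without rituximab tumor 2 (adjusted p = 0.111 and 0.223) or combination tumor 3 (0.0527 and 0.189). In the apoptosis lists the BCL2 family survival gene BCL2A1 fell by 1.22 ± 0.30 (adjusted p = 0.034), the killer BIK rose by 0.86 ± 0.18 (adjusted p = 0.0128), and the TRAIL receptors TNFRSF10A (-0.61 ± 0.17) and TNFRSF10D (-1.09 ± 0.26) fell. BCL2A1 read 4.92, 4.36 and 5.12 in combination tumors, against 5.59, 6.20 and 6.27 in rituximab tumors. These 4 genes did not pass without rituximab tumor 2 or combination tumor 2, and TNFRSF10A did not whichever 1 tumor was left out. Without rituximab tumor 2 the adjusted p was 0.181 for BCL2A1 and 0.128 for BIK. HNRNPL, the 1 splicing factor called (0.43 ± 0.11), is uncertain, since its other probe set gave -0.37. No gene was called among glycolysis (35), Wnt (41), cholesterol and fatty acid (28), complement and Fc receptor (20) and ribosomal protein (54) lists, where the smallest adjusted p was 0.105, 0.0781, 0.11, 0.183 and 0.373.

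Transcripts known from host cell types moved in part with the groups. Whether mouse or human RNA gave these signals was not tested. Of 54 skeletal muscle genes 4 were called higher. MYL11, a myosin light chain of fast muscle, read 5.87, 10.77 and 7.95 in combination tumors, against 5.47, 6.20 and 5.43 in rituximab tumors, and TNNI2, a troponin of fast muscle, read 4.18, 7.76 and 6.90 in combination tumors, against 3.89, 4.77 and 4.26 in rituximab tumors. Combination tumors 2 and 3 carried both rises, and combination tumor 1 lay at the level of the rituximab tumors. Neither passed without combination tumor 2 (adjusted p = 0.174 and 0.306), and the list's count was 10 without combination tumor 1 and 1 without any other. LDB3, a protein of the muscle Z-disc, did not follow that pattern, with 8.48, 8.94 and 8.52 in combination tumors, against 7.18, 6.60 and 6.96 in rituximab tumors (1.73 ± 0.23, adjusted p = 0.00027). Of 19 fibroblast and matrix genes COL1A1 (1.46), COL3A1 (0.70) and VIM (0.35) were called higher, and the list averaged 4.96, 4.99 and 4.96 in combination tumors, against 4.67, 4.69 and 4.67 in rituximab tumors. The 15 macrophage and neutrophil genes averaged 4.41, 4.41 and 4.37 in combination tumors, against 4.49, 4.54 and 4.44 in rituximab tumors, with 13 below 0 and 0 called, and 0 of 13 endothelial and 0 of 14 T and NK cell genes were called. With the muscle level as a covariate 6 tubulin and microtubule genes, 3 progenitor, 1 mitosis, 1 replication, 2 inflammasome, 1 B cell receptor and 0 NF-kB genes were called, and without the tumors with raised muscle transcripts the first 2 of these lists had 2 each and the others 0. The part of other host cells in the results was not tested.

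The matching contrast without rituximab asks whether acadesine alone did the same. Acadesine tumors against control tumors gave 0 called genes (0.0%) by limma, with 1423 at an unadjusted p under 0.05, against 2669 for combination against rituximab. The paper does report genes changed by acadesine alone, with another test, Rank Products. Its threshold was looser, a false discovery rate below 0.2 and a fold change above 1.4. By limma 0 genes had an adjusted p under 0.2 and that fold change. The 6 tumors of each contrast are separate, so their values can be set side by side. The mean of the muscle genes was 4.57, 4.86 and 4.73 in acadesine tumors 1, 2 and 3. Acadesine tumors 2 and 3 thus exceeded every control tumor, as combination tumors 2 and 3 did. The part of muscle transcripts in any shared direction was not tested. Across all genes the correlation of the 2 sets of differences was 0.102 (Pearson, over genes, which are not independent replicates). Genes called higher in combination tumors had a median difference of 0.01 between acadesine and control tumors, with 50.7% above 0 (52.2% of all genes). Genes called lower had a median of -0.06, with 65.7% below 0 (47.8% of all genes). Metallothioneins had a median of -0.39 between acadesine and control tumors, with 8 of 10 below 0 and 0 called. At the protein level the paper reports weaker metallothionein staining in acadesine and in rituximab tumors, and the weakest in combination tumors. The interferon-induced effectors had a median of -0.01 between acadesine and control tumors, with 37 of 69 below 0.

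A test of the difference between the 2 effects called 51 genes (0.28%). The effect of acadesine was more positive with rituximab present in 37 (0.203%) and more negative in 14 (0.0768%). Of the 51 genes, 48 were among the 515. That test contains the difference between combination and rituximab tumors that selected the 515, so the overlap is not independent support. KCNC2 read 4.83, 4.23 and 5.88 in acadesine tumors, against 5.09, 5.67 and 5.41 in control tumors, so its effect differed by 3.06 (adjusted p = 0.00372). MAP1B read 5.64, 4.93 and 5.82 in acadesine tumors, against 6.06, 5.65 and 5.33 in control tumors, a difference between effects of 2.24 (adjusted p = 0.00372). IL7R read 4.55, 4.55 and 5.01 in acadesine tumors, against 4.26, 4.86 and 4.36 in control tumors, a difference between effects of 2.30 (adjusted p = 0.00761). In these 3 genes the combination tumors stood alone, with acadesine, rituximab and control tumors overlapping each other. On the falling side IFIT2 read 6.75, 6.04 and 6.58 in acadesine tumors, against 6.87, 5.77 and 6.41 in control tumors, and its effect differed by -2.04 (adjusted p = 0.0202). Other effects more negative with rituximab were those on RGCC (-1.52), VAV3 (-1.28), the monocarboxylate transporter gene SLC16A4 (-0.995), SP100 (-0.89), TAP1 (-0.73), SLC39A10 (-0.68), JCHAIN (-0.66) and AP3B1, an adaptor of vesicle sorting (-0.59). For MT1G and MT1H the difference between effects was -0.83 and -0.94 and did not pass (adjusted p = 0.568 and 0.57). The count of 51 was 5 without acadesine tumor 1, 157 without acadesine tumor 3, 11 without rituximab tumor 2, 17 without combination tumor 2, 22 without control tumor 3, 27 without control tumor 2 or combination tumor 1 and 29 without acadesine tumor 2.

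**Figure D5:**
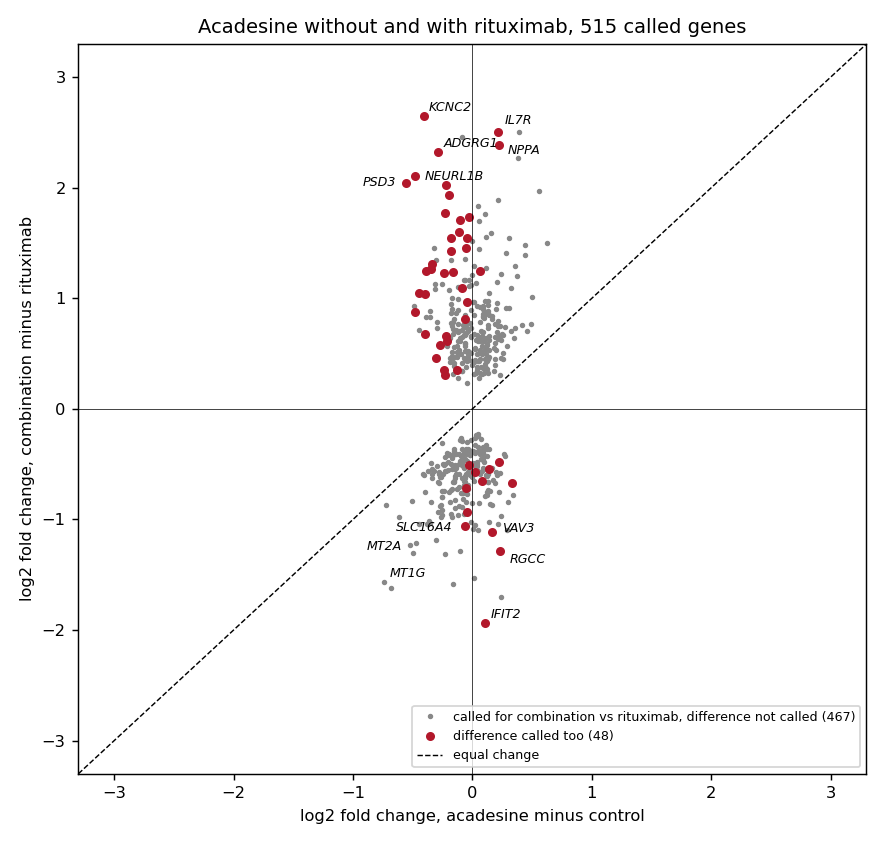
Log2 difference of combination minus rituximab (y axis) against acadesine minus control (x axis) for the 515 called genes, with the line of equal change. Red points are the 48 genes whose 2 effects differed in limma; KCNC2 reaches 2.65 with rituximab and -0.41 without, while MT1G lies at -1.57 and -0.74.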

How the data were processed

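RNA of 12 xenograft tumors, 3 in each of 4 groups, was read on Affymetrix HT HG-U219 arrays, each tumor on its own array. The deposited values are log2 expression, made by the authors with RMA (background correction, quantile normalization and a summary for each probe set). Arrays have no read depth, and 3 per group limit the precision (median SE 0.135). Of 49293 probe sets 45253 named 1 gene, 1327 several and 2800 none. Each gene took its brightest single-gene probe set, and 6417 of 18239 genes had 1 to choose from. Differences were tested with limma (version 3.58.1, R 4.3.3) in a model of the 4 groups whose variance prior followed the mean level, with Benjamini-Hochberg adjustment across genes, after the code was tested on simulated data. An exact permutation of 3 against 3 tumors cannot go below 0.1. Promoters came from RefSeq.

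Named genes were the 15 largest rises and 15 largest falls without overlap, the 4 members of each pathway list and of the muscle list with the smallest p (with up to 2 called the other way), a fixed set of drug and lymphoma genes, and the 5 smallest p in each direction for the difference between effects. Values of other list members, such as MX1 and MTF1, were chosen after they were seen. Members and all 44 lists were chosen with earlier results of these data known. The labels call the tumors biological replicates. Alternatives covered the probe set, filter, variance, weights, scaling, threshold, tumor number, muscle transcripts and each tumor.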

Additional observations from a re-analysis of the deposited data

Results flagged for a closer look

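Of the genes named, 20 differed in the effect of acadesine between tumors with and without rituximab by limma's test of that difference, in log2 units (combination minus rituximab, minus acadesine minus control). The effect was more positive with rituximab for KCNC2 (3.06), ADGRG1 (2.61), PSD3 (2.61), NEURL1B (2.58), IL7R (2.30), MAP1B (2.24), NPPA (2.17), ZNF709 (2.13), FMNL2 (1.995), LDB3 (1.76) and ZNF91 (1.44). It was more negative for IFIT2 (-2.04), RGCC (-1.52), VAV3 (-1.28), SLC16A4 (-0.995), SP100 (-0.89), TAP1 (-0.73), SLC39A10 (-0.68), JCHAIN (-0.66) and AP3B1 (-0.59). Without acadesine tumor 1, 5 genes of all tested passed this test.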

How the results depend on the processing

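Of the 515 genes called between combination and rituximab tumors 510 kept their sign with the most variable probe set of each gene and 514 with the mean of its probe sets. Leaving out tumors could not turn the sign of the 511 genes without overlap. The count was 342 (192 higher, 150 lower) with the most variable probe set, 311 (170, 141) with the mean, 719 (384, 335) over all probe sets, 603 (295, 308) for genes with a mean of at least 5, 241 (149, 92) without the variance trend, 915 (462, 453) with array weights, 546 (226, 320) after centring and 702 (391, 311) at an adjusted p under 0.2 and a fold change over 1.4. The muscle level as a covariate gave 170 (125, 45), and leaving out tumors with raised muscle transcripts 21 (21, 0), with 1 combination tumor assumed to vary like the others. Leaving out 1 tumor gave 106 to 643 genes, 70 to 307 higher and 36 to 336 lower. For acadesine against control tumors limma called 0 under every alternative run. The 51 genes of the difference between effects became 10 with the mean of probe sets, 9 without the trend, 1 without tumors with raised muscle transcripts, 337 at the looser threshold, and 5 to 157 without 1 tumor. Deviations from the group mean correlated at 0.0562, 0.0403 and 0.127 between same-numbered combination and rituximab tumors. Between same-numbered acadesine and control tumors they correlated at 0.151, 0.109 and -0.0771. Between tumors of unlike number the correlations ran from -0.132 to 0.0647 and from -0.239 to 0.117. With 3 tumors in a group these values cannot settle whether the numbers pair tumors. With tumor number as a replicate block 532 genes (280, 252) were called, and 68 for the difference between effects. Signs turned with the most variable probe set for RRM2B (0.093), BNIP3 (-0.055), HNRNPL (-0.37) and RPL3 (-0.20), with the mean of probe sets for RPL3 combination vs rituximab (-0.027), with the covariate for FCGR2B (0.05), and without the tumors with raised muscle transcripts for FCMR (0.001) and FCGR2B (0.041). The cause was not tested. Array number and signal over background, not depth, limit these values.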

Other observations

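Genes of zinc finger transcription factors, most of which silence other genes and many of which stand in clusters on chromosome 19, were grouped by symbol after their values were seen, so no test was made. Of 535 genes whose symbols begin with ZNF, ZFP or ZSCAN, 18 were called higher in combination than in rituximab tumors (3.36%, against 1.51% of all genes) and 0 lower, with a median difference of 0.05. Those on chromosome 19 held 16 of the 18, out of 247 (6.48%), and the 288 elsewhere held 2 (0.694%). The other 1051 genes of chromosome 19 had 17 called higher (1.62%) and 5 lower. ZNF709 rose by 1.93 and ZNF91, which represses retrotransposons in primates, by 1.04. Between acadesine and control tumors the median over the 535 was -0.07. The count of 18 was 8 without rituximab tumor 2 and 4 without the tumors with raised muscle transcripts. These genes are close relatives, so their probe sets can share signal.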
